A study of Mus musculus with 6 samples.

Results

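The C1q-positive macrophages of B16-F10 melanomas that lacked the marker signals of the Lyve1 Folr2 Fcna, the Ppbp Ccl24 and the Mmp12 Mmp13 Hilpda macrophages were described in tumors of mice given αPD-1 alone or with corin. A cell belonged to this class when its barcode held 600 to 4000 genes and at most 10% mitochondrial UMIs (unique molecular identifiers, the counted molecules), and at least 3 UMIs of C1qa, C1qb and C1qc together. It also had at most 2 UMIs of Lyve1, Folr2 and Fcna, at most 1 of Ppbp and Ccl24, at most 2 of Mmp12, Mmp13 and Hilpda, and none of the T cell genes Cd3d, Cd3e and Cd3g or of the B cell genes Cd79a, Cd79b and Ms4a1. The cells were thus chosen by the measured UMIs of these 17 genes, which are reported nowhere below as a result. Of 52899 barcodes in 6 samples, 30067 passed the gene and mitochondrial limits and 3845 belonged to the class. There were 345, 446 and 326 cells in αPD-1 samples 1 to 3 and 1496, 509 and 723 in αPD-1 + corin samples 1 to 3, the order in which values are given throughout.

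Single-cell RNA-Seq was done on CD45+ cells enriched with magnetic beads from tumors of B16-F10, a mouse melanoma cell line, grown in female C57BL/6 mice of 6 to 10 weeks. Both groups received αPD-1, an antibody that blocks the PD-1 checkpoint receptor, at 150 µg 3 times per week from day 7. The αPD-1 + corin group also received corin, an inhibitor that acts on both the histone deacetylase and the LSD1 demethylase activity of the CoREST complex, at 200 µg daily from day 6. Each group had 3 samples, from a study arm of 10 mice, and nothing in the labels said which animals gave which sample, so p-values measured the spread between these samples. By the study's methods, mice received either corin or a DMSO vehicle by daily injection, and the labels of the αPD-1 samples do not name the vehicle.

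C1q is the recognition unit of the classical complement pathway, and within tumors its 3 chains are made mainly by macrophages. Tumor macrophages arise largely from blood monocytes that lose monocyte genes such as Ly6c2 and gain genes of phagocytosis, lysosomal breakdown, lipid handling and antigen presentation as they mature. The same cells can secrete chemokines that draw neutrophils, monocytes or T cells into the tumor.

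The cells carried macrophage genes that the rule did not use. Depending on the sample, 81.1 to 89.6% of the cells had a UMI of Ms4a7, Adgre1 (the F4/80 antigen) or Aif1. Expression was summed over the cells of each sample and scaled to UMIs per 1000000 (CPM). Ms4a7, a membrane protein of mature macrophages, measured 329.7, 369 and 345 CPM with αPD-1 and 439, 419.6 and 420.3 CPM with αPD-1 + corin. Adgre1 measured 236, 251 and 238 CPM with αPD-1 and 204, 234 and 342 CPM with αPD-1 + corin. Aif1, an actin-binding protein of macrophages, measured 449, 564 and 428 CPM with αPD-1 and 334, 481 and 538 CPM with αPD-1 + corin. Ms4a7 was higher in every αPD-1 + corin sample by a small amount (log2 fold change 0.29 ± 0.13 (SE)), and Adgre1 and Aif1 overlapped between the groups, with adjusted p-values of 0.344, 0.834 and 0.856 in that order (edgeR quasi-likelihood test). The share with a UMI of these markers was 63.6% among 242 cells just inside the C1q limit, at 3 UMIs, and 56.9% among 350 barcodes just outside it, at 2 UMIs. At the Lyve1 Folr2 Fcna limit it was 89.6% for 347 cells with 2 UMIs inside and 89.2% for 260 cells with 3 outside. The Ppbp Ccl24 limit parted 199 cells with 1 UMI, of which 79.9% had a marker UMI, from 78 cells with 2 UMIs, of which 78.2% had one. At the Mmp12 Mmp13 Hilpda limit the shares were 78.4% for 310 cells with 2 UMIs inside and 78.4% for 204 cells with 3 outside.

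One library stood apart from its group. Over 6112 genes with a mean of at least 20 CPM, the log2 levels of αPD-1 + corin sample 3 correlated with those of the αPD-1 samples at 0.959, 0.963 and 0.953, whereas αPD-1 + corin sample 1 gave 0.898, 0.900 and 0.923 and sample 2 gave 0.923, 0.927 and 0.934. αPD-1 + corin samples 1 and 2 correlated at 0.970 with each other, and sample 3 at 0.923 and 0.951 with them. The main comparisons are therefore given with and without αPD-1 + corin sample 3. Because that sample was singled out by its levels in these same data, leaving it out widens the contrast by construction. Calls and p-values without it are descriptive only. The samples held 52281422 to 84276739 UMIs, and the class held 1247160 to 4774046 of them at medians of 3568, 4154 and 3130 UMIs per cell with αPD-1 and 2591, 4442 and 3501 with αPD-1 + corin. C1q RNA was also found in barcodes of other cell types in every library, with at least 3 C1q UMIs in 7.87 to 12.7% of T or B cells per αPD-1 sample and in 21.2 to 47.7% per αPD-1 + corin sample. Of the cells of the class, 4 to 15 per sample shared a barcode sequence with another library, and the doublet score of Scrublet marked 2, 5 and 1 cells with αPD-1 and 98, 40 and 12 with αPD-1 + corin.

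The class made up a larger part of the kept barcodes in each αPD-1 + corin sample than in any αPD-1 sample, but a smaller part of the C1q-positive macrophages in 2 of the 3. Its share of kept barcodes was 7.73, 11.9 and 7.37% with αPD-1 (mean 8.98% ± 2.49, SD, n = 3) and 18, 12.2 and 14.7% with αPD-1 + corin (15% ± 2.91, SD, n = 3). The groups did not overlap, although αPD-1 sample 2 and αPD-1 + corin sample 2 had overlapping 95% Wilson intervals of 10.9% to 12.9% and 11.2% to 13.2%, which cover counting error only. The difference of 5.97 percentage points gave p = 0.1 in a 2-sided exact permutation test, the smallest p that 3 against 3 samples allow, and 0.2 after Benjamini-Hochberg adjustment over the 2 shares tested. The groups overlapped under 4 alternative rules for the cells, with differences of 5.77 points with doublets removed, 4.62 with no upper gene limit, 4.98 where Ms4a7, Adgre1 or Aif1 was needed and 3.54 where cells with 2 or more UMIs of other-lineage markers were left out. The share of T and B cells with at least 3 C1q UMIs was also higher with αPD-1 + corin, and the part of such RNA in the size of the class was not tested. The rule also left out C1q-positive barcodes with a T or B cell UMI. These were 378, 364 and 358 with αPD-1 and 513, 356 and 519 with αPD-1 + corin. B cell barcodes without C1q UMIs, which are among the kept barcodes, numbered 809, 636 and 1078 with αPD-1. With αPD-1 + corin they numbered 90, 74 and 16. The part of these counts in the difference of shares was not tested.

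Among C1q-positive barcodes with no T or B cell UMI, the class took 64.2, 74.1 and 72.6% with αPD-1 (70.3% ± 5.31, SD, n = 3) and 37.8, 43.9 and 73.8% with αPD-1 + corin (51.8% ± 19.3, SD, n = 3). αPD-1 + corin sample 3 lay inside the αPD-1 range and samples 1 and 2 far below it, and the exact permutation test gave p = 0.3. Without αPD-1 + corin sample 3 the difference was -29.5 percentage points. αPD-1 + corin samples 1 and 2 held 1069 and 163 Lyve1 Folr2 Fcna cells against 90, 70 and 44 with αPD-1, and 771 and 233 cells over more than 1 of the limits against 16, 28 and 9.

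**Figure D1:**
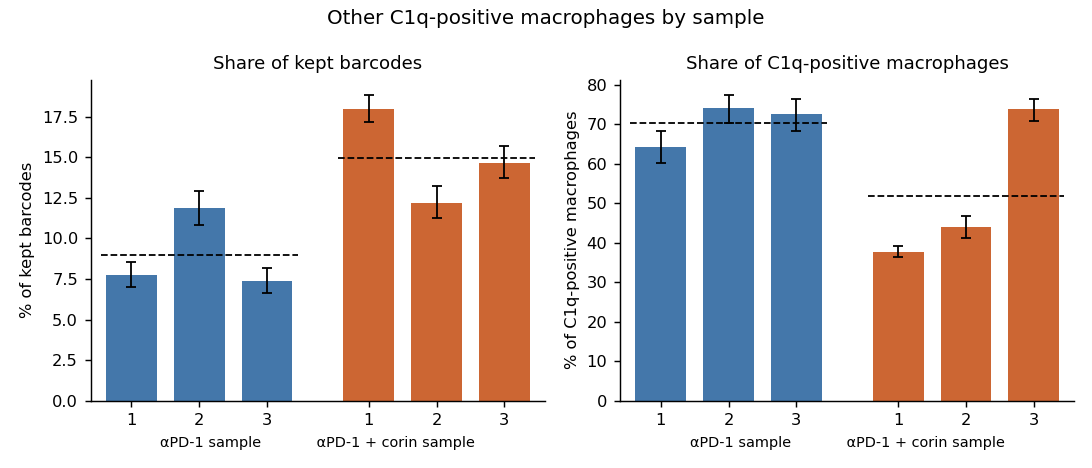
Share of the macrophage class among kept barcodes (left, %) and among C1q-positive macrophages (right, %) in each sample. Bars are samples, whiskers are 95% Wilson intervals and dashed lines are group means. On the left the 3 αPD-1 + corin samples lie at 12.2% to 18% and the αPD-1 samples at 7.37% to 11.9%, and on the right sample 3 of αPD-1 + corin, at 73.8%, lies with the αPD-1 samples.

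Cells of the class differed widely among themselves in antigen presentation genes. After each cell was thinned to 1000 UMIs (3829 cells, 16 shallower cells left out), MHC class II genes took a median of 7, 7 and 9 UMIs per cell with αPD-1 and 8, 12 and 12 with αPD-1 + corin, while the 10th to 90th percentiles ran from 2 to 29 in αPD-1 sample 1 and from 2 to 47 in αPD-1 + corin sample 2. Lysosome genes were spread less, from 9 to 29 UMIs between the same percentiles of αPD-1 sample 1. Chemokine genes took a median of 6, 5 and 5 UMIs per cell with αPD-1 and 15, 13 and 7 with αPD-1 + corin. The 25th percentile of αPD-1 + corin samples 1 and 2, at 9 and 6 UMIs, reached the αPD-1 medians. T cells of those 2 libraries had a UMI of the chemokine Cxcl2 in 44.1% and 45.3% of cells at the same depth, and the part of RNA from outside the cell in these percentiles was not tested. In αPD-1 + corin sample 3 that percentile was 3 UMIs, within the αPD-1 range of 2 to 3.

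When the cells were ordered by MHC class II UMIs and divided at 5 and 15 UMIs per 1000, 24.3 to 34.8% of cells per sample with αPD-1 and 31 to 42% with αPD-1 + corin were in the upper range. The divisions fall inside a continuous spread, with 712 of the 3829 cells within 1 UMI of the lower one. Mean chemokine UMIs in the lower, middle and upper ranges were 8, 7.79 and 9.51 in αPD-1 sample 1, 5.7, 7.92 and 9.46 in sample 2 and 8.72, 7.46 and 7.99 in sample 3. They were 16.8, 21.2 and 20.6 in αPD-1 + corin sample 1, 14.1, 18.3 and 17.3 in sample 2 and 6.63, 9.46 and 11.7 in sample 3. Samples 1 and 2 of αPD-1 + corin were thus above the αPD-1 samples in each range, whereas sample 3 was above them in the upper and middle ranges and below αPD-1 samples 1 and 3 in the lower one. Cell cycle genes took 1.81, 1.81 and 1.5 UMIs in the lower, middle and upper ranges of αPD-1 sample 1, 2.65, 1.54 and 1.24 in sample 2 and 1.56, 1.31 and 1.38 in sample 3, and 1.61, 1.07 and 0.861, then 2.06, 1.55 and 1.12, then 1.63, 1.69 and 1.26 in αPD-1 + corin samples 1 to 3. The upper range held less than the lower in each sample, with the middle range between them in 4 of the 6.

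**Figure D2:**
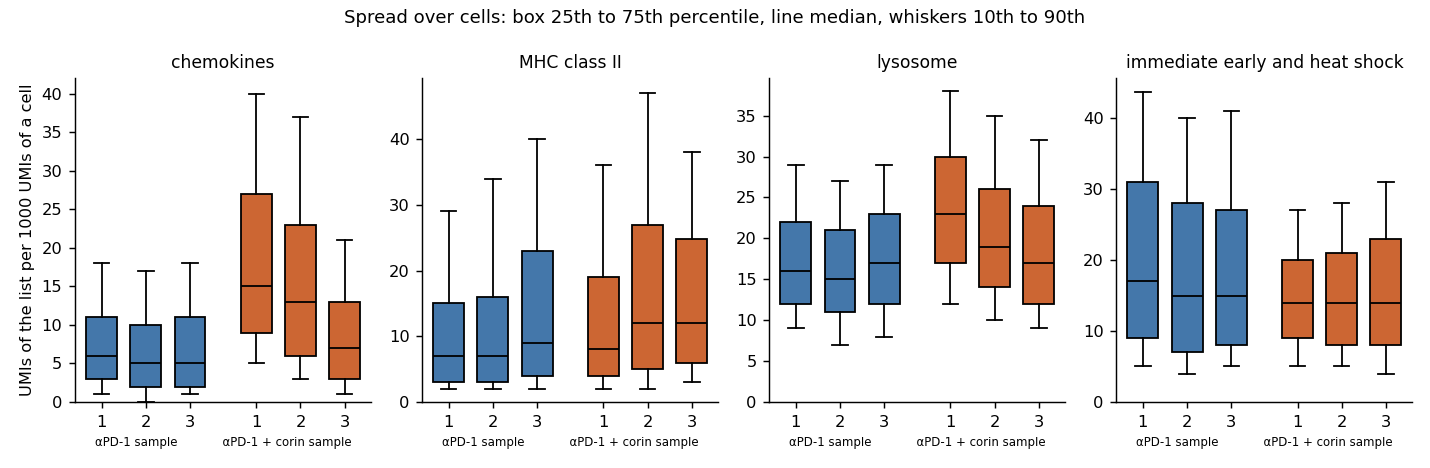
UMIs of 4 gene lists per 1000 UMIs of a cell, by sample. Boxes span the 25th to 75th percentile of cells, lines are medians and whiskers reach the 10th and 90th percentile. Chemokine medians of 15, 13 and 7 with αPD-1 + corin stand above 6, 5 and 5 with αPD-1, while heat shock and immediate early genes reach higher upper percentiles with αPD-1.

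Expression was then compared between the groups, with 1 sum per sample. In bulk sums of a class, more cells of one state and more RNA per cell cannot be told apart. Of 10191 genes tested, 2 passed an adjusted p of 0.05 in edgeR's quasi-likelihood test, which is 0.0196%, and both were higher with αPD-1 + corin. At an unadjusted p under 0.05 there were 1493 genes (14.7%), 7.45% higher and 7.2% lower. In 975 genes every αPD-1 + corin sample was above every αPD-1 sample (9.57%), and in 1041 genes every one was below (10.2%), 19.8% in both directions. These shares are the background for the counts of list members below. Without αPD-1 + corin sample 3, 494 of 10438 genes passed as higher (4.73%) and 386 as lower (3.7%), 880 in all (8.43%). That fit is descriptive, since the sample was chosen by these same levels. Leaving out αPD-1 + corin sample 1 or 2 instead gave 20 and 4 genes. The median log2 fold change over all genes was -0.01 with all samples. DESeq2, an alternative count test, called 137 genes on the same sums, 109 higher and 28 lower.

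Saa3, an acute-phase serum amyloid protein made by macrophages and stromal cells under inflammatory stimuli, rose more than the other gene that passed. It lies on chromosome 7 (46361422 to 46365576, minus strand, GRCm39) and measured 20.2, 10.02 and 31.4 CPM with αPD-1 and 312, 200.2 and 183 CPM with αPD-1 + corin. The lowest αPD-1 + corin sample was thus several times above the highest αPD-1 sample, with a log2 fold change of 3.58 ± 0.35 (SE) and an adjusted p of 0.0066 (edgeR). In cells thinned to 1000 UMIs, a Saa3 UMI was found in 1.45, 0.674 and 1.54% of cells with αPD-1 and 5.87, 2.36 and 7.06% with αPD-1 + corin. T cells of the same libraries with fewer than 3 C1q UMIs, thinned alike, had one in 0.167, 0.152 and 0.418% of cells with αPD-1 and 2.96, 1.26 and 1.67% with αPD-1 + corin, at medians of 2499.5 to 4738 UMIs before thinning. Saa3 was most abundant elsewhere in fibroblast barcodes, at 4507 CPM, and monocyte barcodes held 2100 CPM. Its mean over the samples, without scaling factors, was 122 CPM in this class and 556 CPM in the Lyve1 Folr2 Fcna macrophages. It was 113.5 CPM in the Mmp12 Mmp13 Hilpda macrophages and 465 CPM, over 2 samples, in the Ppbp Ccl24 macrophages. The summed level of the fibroblast markers Col1a1 and Dcn in the class was 1.5, 1.4 and 2.4 CPM with αPD-1. With αPD-1 + corin it was 479, 100.5 and 61.6 CPM. When cells with 2 or more UMIs of the defining markers of neutrophils, plasma cells, NK cells, melanoma, fibroblasts or endothelium were left out, the log2 fold change of Saa3 was 2.71 and its adjusted p was 0.153. With doublets removed they were 2.94 and 0.0911, so that Saa3 passed in neither.

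Fpr1, the formyl peptide receptor that guides phagocytes to bacterial and mitochondrial peptides, was the other gene that rose. It lies on chromosome 17 (18096733 to 18104202, minus strand, GRCm39) and measured 10.5, 10.02 and 8.85 CPM with αPD-1 and 40.7, 55.5 and 62.6 CPM with αPD-1 + corin. The groups did not overlap and αPD-1 + corin sample 3 was the highest of all, with a log2 fold change of 2.41 ± 0.23 (SE) and an adjusted p of 0.0066 (edgeR). After thinning, 1.45, 0.899 and 2.15% of cells with αPD-1 and 3.84, 6.09 and 5.68% with αPD-1 + corin had an Fpr1 UMI. Among T cells the shares were 0.167, 0 and 0.209% with αPD-1 and 1.32, 4.86 and 0.218% with αPD-1 + corin. The part of such RNA in the level of Fpr1 was not tested. Its mean over the samples, without scaling factors, was 30.4 CPM in this class and 83.7 CPM in the Lyve1 Folr2 Fcna macrophages. It was 16.3 CPM in the Mmp12 Mmp13 Hilpda macrophages and 98.4 CPM, over 2 samples, in the Ppbp Ccl24 macrophages. Neutrophil barcodes, where Fpr1 was most abundant elsewhere, held 295 CPM, and the 5 neutrophil markers S100a8, S100a9, Csf3r, Cxcr2 and Retnlg summed to 188, 66.2 and 65.7 CPM in the class with αPD-1 and 2141, 4713 and 179 CPM with αPD-1 + corin. Without cells bearing markers of other lineages the log2 fold change of Fpr1 was 2.13, with an adjusted p of 0.062, and in cells thinned to 1000 UMIs it was 2.02, with an adjusted p of 0.0732. With 1 αPD-1 sample left out at a time, adjusted p-values were 0.217, 0.0437 and 0.0557 for Saa3 and 0.2, 0.0709 and 0.103 for Fpr1, for samples 1 to 3 in turn.

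**Figure D3:**
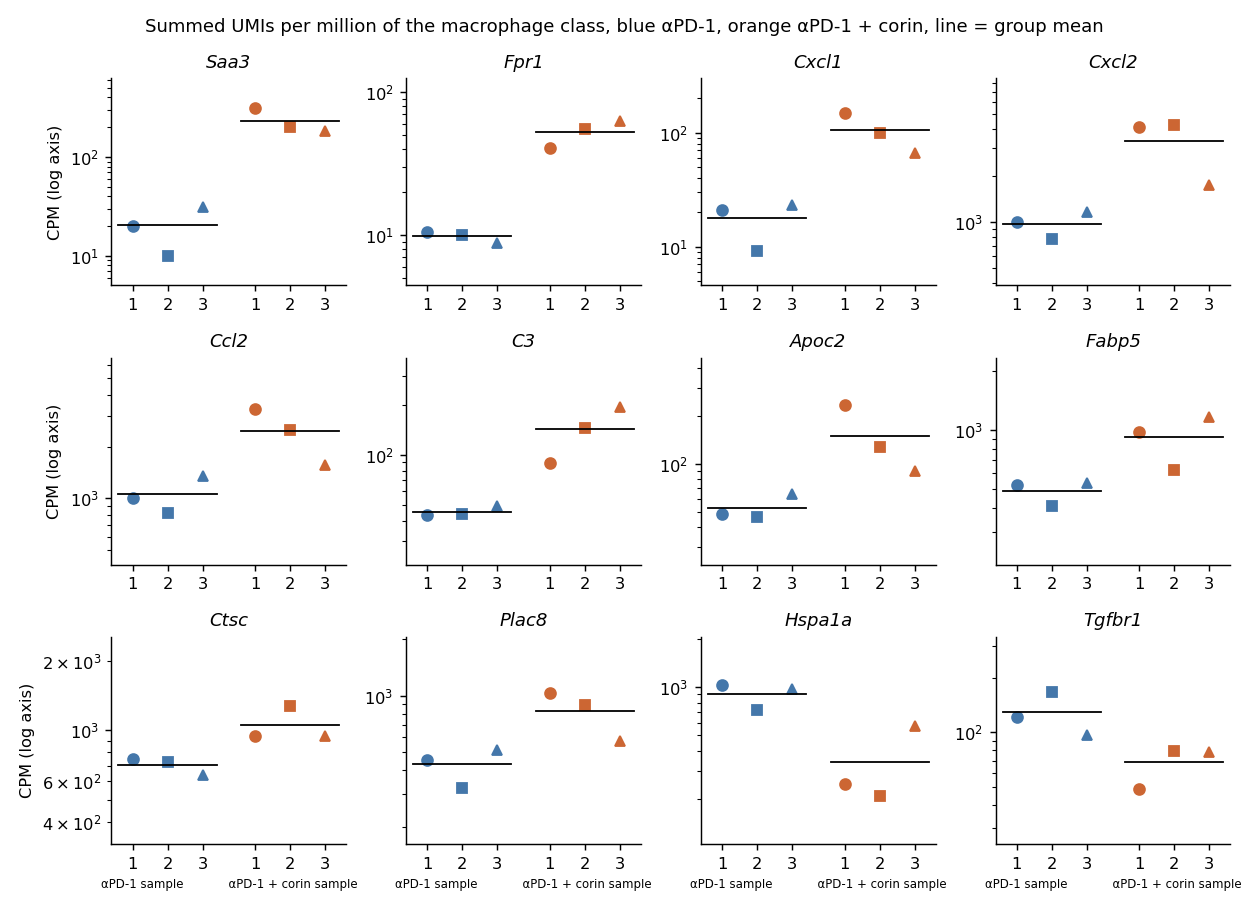
Levels of 12 genes in the macrophage class, in CPM on a log axis, for each αPD-1 sample (blue) and αPD-1 + corin sample (orange), with lines at group means. Saa3 runs from 10.02 to 31.4 CPM with αPD-1 and from 183 to 312 CPM with αPD-1 + corin, and in Cxcl2, Ccl2, Plac8 and Hspa1a sample 3 of αPD-1 + corin lies between the other 2 and the αPD-1 samples.

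Among the lists of macrophage function, chemokines had the highest median. The marker lists of neutrophils and fibroblasts had higher ones, with medians of 3.77 over 10 tested neutrophil genes and 7.25 over 5 fibroblast genes, the latter fitted against αPD-1 levels near 0 and no bound. Of 17 tested chemokine genes, 16 had a log2 fold change above 0 and 7 were higher in every αPD-1 + corin sample than in any αPD-1 sample (41.2%, against 19.8% without overlap over all genes). None passed the adjusted p, and 10 had an unadjusted p under 0.05 in the upward direction and 1 in the downward. The median was 1.07, against -0.01 over all genes, and without αPD-1 + corin sample 3 it was 0.93, with 10 of 18 genes passing as higher. Cxcl2, which attracts neutrophils through CXCR2, measured 993, 776 and 1160 CPM with αPD-1 and 4102, 4254 and 1734 CPM with αPD-1 + corin. Its log2 fold change was 1.79 ± 0.31 (SE), with an adjusted p of 0.0663 with all samples and 0.000378 without αPD-1 + corin sample 3 (edgeR). Cxcl1, a second CXCR2 ligand, measured 20.9, 9.15 and 23.3 CPM with αPD-1 and 149, 100.1 and 65.8 CPM with αPD-1 + corin, all 3 of the latter above all 3 of the former, with an adjusted p of 0.0522. Cxcl3, the third of these neighboring genes, measured 30.7, 2.18 and 29.8 CPM with αPD-1 and 197, 322 and 8.19 CPM with αPD-1 + corin. Its αPD-1 + corin sample 3 was below an αPD-1 sample, so that the groups overlapped. A Cxcl3 UMI was found in 1.16, 0.449 and 1.54% of cells with αPD-1 after thinning, and in 0.833, 0 and 0.418% of T cells. With αPD-1 + corin the shares were 8.29, 14.3 and 0.554% of cells and 13.8, 21 and 1.38% of T cells. The part of such RNA in the level of Cxcl3 was not tested.

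Ccl2, which recruits CCR2+ monocytes, measured 1008, 822 and 1348 CPM with αPD-1 and 3292, 2502 and 1561 CPM with αPD-1 + corin, a log2 fold change of 1.21 ± 0.27 (SE) (adjusted p = 0.115, edgeR). Ccl3, an inflammatory chemokine, measured 346, 429.9 and 357 CPM with αPD-1 and 730.4, 1165 and 595 CPM with αPD-1 + corin. A UMI of Cxcl2 was found in 25.2, 19.6 and 23.7% of cells with αPD-1 and 59.9, 55.2 and 34.2% with αPD-1 + corin after thinning. T cells had one in 4.5, 3.35 and 7.1% of cells with αPD-1 and 44.1, 45.3 and 11.8% with αPD-1 + corin, and the part of such RNA in the share was not tested. For Ccl2 the shares were 38.3, 34.4 and 44.3% of cells with αPD-1 and 75.9, 64.2 and 48.2% with αPD-1 + corin, and T cells had 1.67, 1.67 and 5.64% with αPD-1 and 21.4, 12.1 and 6.9% with αPD-1 + corin. Neutrophil barcodes held 27017 CPM of Cxcl2, 3180 CPM of Cxcl3 and 8101 CPM of Ccl3. Without cells bearing markers of other lineages the log2 fold change of Ccl3 was 0.38, compared with 1.13 in all cells of the class. Those of Cxcl2 and Cxcl3 were 1.27 and 1.45, compared with 1.79 and 3.2. That of Ccl2 was 1.27 and that of Cxcl1 was 2.40. The T cell chemokines went another way. Cxcl9 measured 399, 505 and 209 CPM with αPD-1 and 28, 410.4 and 757 CPM with αPD-1 + corin. Cxcl10 measured 382, 334 and 300.2 CPM with αPD-1 and 117, 389 and 516 CPM with αPD-1 + corin, with αPD-1 + corin sample 1 lowest and sample 3 highest of all 6 for both.

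The promoters of the 3 CXCR2 ligands are shown because the genes lie near each other on chromosome 5 and their products act on the same receptor. The 130 bases before the start of each gene are given 5′ to 3′ on the plus strand, from RefSeq promoter sequences of build GRCm38.p6, with matches to the 10-letter motif GGGNNTTTCC on either strand in capitals.
Cxcl1, chr5:90891115-90891244: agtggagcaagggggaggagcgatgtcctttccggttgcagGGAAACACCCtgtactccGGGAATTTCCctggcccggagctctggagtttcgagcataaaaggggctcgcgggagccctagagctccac
Cxcl2, chr5:90903769-90903898: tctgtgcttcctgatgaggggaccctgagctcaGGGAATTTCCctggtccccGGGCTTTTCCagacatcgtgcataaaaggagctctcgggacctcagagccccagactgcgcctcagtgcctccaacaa
Cxcl3, chr5:90785971-90786100: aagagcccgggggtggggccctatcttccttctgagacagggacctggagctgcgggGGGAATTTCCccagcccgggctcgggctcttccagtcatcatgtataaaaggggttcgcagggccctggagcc
This motif is a form of the sequence bound by NF-κB, a transcription factor of inflammatory signaling. It matched at 89 bases (minus strand) and 71 bases before the start of Cxcl1, at 97 and 78 before that of Cxcl2, and at 73 before that of Cxcl3. Of 20 chemokine genes listed, 15 had a promoter in the reference and 4 of those held a match (26.7%), the fourth being Ccl9. Of all 32851 promoters, 535 held a match (1.63%), in windows of 250 bases before to 50 after the start. The first share counts genes and the second counts promoters. The 3 genes shown are among the 4 with a match, so the shares do not measure enrichment. A match describes the letters only, and the matches do not overlap each other.

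Genes of inflammatory cytokines and NF-κB targets pointed the same way in most members. Of 30 tested members, 10 were higher without overlap and none was lower (33.3%, against 19.8% over all genes), 13 had an unadjusted p under 0.05, all upward, and none passed the adjusted p. Their median log2 fold change was 0.44 with all samples and 0.31 without αPD-1 + corin sample 3, where 8 passed. Ier3, an early stress-response gene, measured 317, 223 and 291 CPM with αPD-1 and 689.7, 698 and 493 CPM with αPD-1 + corin (adjusted p = 0.0663, edgeR). Clec4e, the Mincle receptor for mycobacterial and dead-cell ligands, measured 80.9, 56.2 and 101 CPM with αPD-1 and 169, 239 and 144 CPM with αPD-1 + corin. Nlrp3, the sensor of the inflammasome, measured 71.8, 55.8 and 69.2 CPM with αPD-1 and 139, 185 and 99.3 CPM with αPD-1 + corin. Ptgs2, the enzyme of prostaglandin synthesis known as COX-2, measured 94.8, 103 and 109 CPM with αPD-1 and 131, 294 and 206 CPM with αPD-1 + corin. In each of these 4 genes the lowest αPD-1 + corin value exceeded the highest αPD-1 value. Neutrophil barcodes held more of all 4, at 2879 CPM of Ier3, 1352 of Clec4e, 709 of Nlrp3 and 1716 of Ptgs2. Without cells bearing other-lineage markers the log2 fold changes were 0.88 for Ier3, 0.57 for Clec4e, 0.74 for Nlrp3 and 0.28 for Ptgs2, compared with 1.18, 1.23, 1.11 and 1.04 in all cells of the class.

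Complement genes other than C1q had a median of 0.48 over 13 tested members, of which 6 were higher without overlap and none lower (46.2%, against 19.8% over all genes). None passed the adjusted p, and 6 had an unadjusted p under 0.05 upward and 1 downward. C3, the component on which all complement pathways converge, measured 43.2, 43.6 and 49.1 CPM with αPD-1 and 89.4, 145 and 194 CPM with αPD-1 + corin, and here αPD-1 + corin sample 3 was the highest (log2 fold change 1.65 ± 0.26 (SE), adjusted p = 0.0663, edgeR). C3ar1, the receptor of the C3a fragment, measured 257, 256 and 228 CPM with αPD-1 and 445, 332 and 308 CPM with αPD-1 + corin. Cfp, properdin, which stabilizes the alternative pathway convertase, measured 215, 139 and 244 CPM with αPD-1 and 381, 294 and 275 CPM with αPD-1 + corin. Fibroblast barcodes held 1447 CPM of C3, and the log2 fold change was 1.23 without cells bearing other-lineage markers. C3ar1 was at 98.3 CPM in monocyte barcodes and at most 29.9 CPM in the other cell types. Its log2 fold change was 0.66 after the same filter, which does not use monocyte markers, compared with 0.55 in all cells of the class.

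Genes of the monocyte-derived list were higher on balance, but not every monocyte marker was. Of 20 tested members of the monocyte-derived list, 8 were higher without overlap and 1 lower (45%, against 19.8% over all genes). An unadjusted p under 0.05 was found upward for 8 and downward for 1, and none passed the adjusted p. The median was 0.54 with all samples and 0.78 without αPD-1 + corin sample 3, where 8 passed as higher. Plac8 measured 455, 324 and 516 CPM with αPD-1 and 1028, 897 and 573 CPM with αPD-1 + corin. Ly6c2, a surface antigen of classical monocytes, measured 102, 116 and 210.1 CPM with αPD-1 and 238, 279 and 220.3 CPM with αPD-1 + corin. Ifitm6 measured 43.2, 16.6 and 33.8 CPM with αPD-1 and 154, 139 and 50.2 CPM with αPD-1 + corin, and neutrophil barcodes held 435 CPM of it against 271 in monocytes. In these 3 genes αPD-1 + corin sample 3 was the αPD-1 + corin sample nearest to the αPD-1 range. Lgals3, a galactoside-binding lectin, measured 1791, 1876 and 2214 CPM with αPD-1 and 2720.4, 2232 and 2483 CPM with αPD-1 + corin. T cells had a Plac8 UMI in 19.7, 22.2 and 25.7% of cells with αPD-1 and 37.8, 34.9 and 31.7% with αPD-1 + corin after thinning, against 18.3, 17.8 and 25.5% of cells with αPD-1 and 42.6, 32.6 and 21.9% with αPD-1 + corin of the class, so its share was no higher than in T cells in most samples. For Ly6c2 the T cell shares were 22.7, 22.8 and 25.1% with αPD-1 and 29.3, 27 and 43.9% with αPD-1 + corin. The class had 5.8, 8.54 and 16.3% with αPD-1 and 15.4, 16.7 and 13.2% with αPD-1 + corin, below T cells in every sample. Plasma cell barcodes held 587 CPM of Ly6c2 and monocyte barcodes 555 CPM, and the part of RNA of other cell types in its level was not tested.

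MHC class II genes had a median log2 fold change of 0.38. Of 16 members, 4 were higher without overlap and none lower (25%, against 19.8% over all genes), 6 had an unadjusted p under 0.05, and none passed the adjusted p. Cd74, the invariant chain, measured 3678, 3893 and 5259 CPM with αPD-1 and 4821, 7277 and 6026 CPM with αPD-1 + corin. H2-Aa, an α chain, measured 1646, 1806 and 2315 CPM with αPD-1 and 1977, 3025 and 2897 CPM with αPD-1 + corin. Both overlapped between the groups, since αPD-1 sample 3 exceeded αPD-1 + corin sample 1. Ctss, the protease that trims the invariant chain, measured 1585, 1613 and 1684 CPM with αPD-1 and 1874, 1961 and 2518 CPM with αPD-1 + corin without overlap. Dendritic cell barcodes held 17295 CPM of Cd74, and the 6 dendritic cell markers Xcr1, Clec9a, Flt3, Zbtb46, Cd209a and Ccr7 summed to 24.8, 41.4 and 52.9 CPM in the class with αPD-1 and 51.5, 55.5 and 44.9 CPM with αPD-1 + corin. MHC class I genes had a median of 0.13 over 20 members, of which 1 was higher without overlap (5%, below the 19.8% over all genes).

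Interferon-stimulated genes had medians near that of all genes. Of 35 type I interferon-stimulated genes, 3 were higher and 2 lower without overlap, below the 9.57% and 10.2% over all genes, with a median of 0.13. Ifitm3, which restricts entry of viruses, was the member with the highest level and measured 1375, 1147 and 1798 CPM with αPD-1 and 3252, 2265 and 1869.9 CPM with αPD-1 + corin. The interferon gamma-stimulated genes summed to 4089, 4079.9 and 3016 CPM with αPD-1 and 2051, 4183 and 5578 CPM with αPD-1 + corin. Their median log2 fold change over 30 members was 0.08 with all samples and -0.42 without αPD-1 + corin sample 3, so the sign turned with that sample. Acod1, which makes itaconate in activated macrophages, was one of 2 members higher without overlap, at 149.9, 115 and 93.4 CPM with αPD-1 and 162, 356 and 382 CPM with αPD-1 + corin. Neutrophil barcodes held 2459 CPM of Acod1, and without cells bearing other-lineage markers its log2 fold change was 0.73, compared with 1.32.

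Many lysosome genes were slightly higher. Of 36 tested lysosome genes, 16 were higher in every αPD-1 + corin sample and none was lower (44.4% without overlap, against 19.8% over all genes), 16 had an unadjusted p under 0.05 and none passed the adjusted p. The sizes were small, with a median log2 fold change of 0.32 with all samples, 0.38 without αPD-1 + corin sample 3 and 0.39 without cells bearing other-lineage markers. Ctsb, cathepsin B, measured 2295, 2035 and 2242 CPM with αPD-1 and 3524, 2695 and 2680.3 CPM with αPD-1 + corin. Psap, the precursor of the saposins that help degrade sphingolipids, measured 2246, 1904 and 2073 CPM with αPD-1 and 2729.9, 2662 and 3015 CPM with αPD-1 + corin. Ctsc, the protease that activates granzymes and neutrophil serine proteases, measured 753, 729.6 and 642 CPM with αPD-1 and 942, 1268 and 939 CPM with αPD-1 + corin (log2 fold change 0.57 ± 0.17 (SE), adjusted p = 0.205, edgeR). Lgmn, legumain, an asparagine-specific protease, measured 1047, 1029.7 and 1010.2 CPM with αPD-1 and 1475, 1319.6 and 1214 CPM with αPD-1 + corin. T cells had a UMI of Ctsb in 17.3, 14.3 and 16.9% of cells with αPD-1 and 41.8, 33.5 and 25.9% with αPD-1 + corin after thinning, against 78.8, 73.9 and 80.9% of cells with αPD-1 and 89.5, 80.2 and 79.9% with αPD-1 + corin of the class.

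In the lipid-associated and Trem2 list, 8 of 25 tested members were higher without overlap and 1 was lower (36%, against 19.8% over all genes). The list had a median of 0.35 and 9 unadjusted p-values under 0.05, and no member passed the adjusted p. Apoe, the apolipoprotein that carries cholesterol out of macrophages, measured 2105, 2211 and 2624 CPM with αPD-1 and 4559.5, 3151 and 3788 CPM with αPD-1 + corin. Apoc2, the cofactor of lipoprotein lipase, measured 48.1, 46.2 and 64.4 CPM with αPD-1 and 233, 128 and 89.7 CPM with αPD-1 + corin (log2 fold change 1.53 ± 0.32 (SE), adjusted p = 0.096). It was at 101 CPM in monocyte barcodes and at most 16.4 CPM in the other cell types. Its log2 fold change was 1.67 without cells bearing other-lineage markers, a filter that does not use monocyte or dendritic cell markers. Fabp5, a fatty acid-binding protein, measured 525, 409 and 536 CPM with αPD-1 and 971, 621 and 1170.2 CPM with αPD-1 + corin. Gpnmb, a glycoprotein of lipid-laden macrophages and of melanocytes, measured 101, 102 and 202 CPM with αPD-1 and 266, 229 and 249 CPM with αPD-1 + corin. Melanoma barcodes held 2861 CPM of Gpnmb, and the melanoma markers Pmel, Mlana, Tyr and Dct summed to 73.6, 92.3 and 190 CPM in the class with αPD-1 and 442, 409.6 and 136 CPM with αPD-1 + corin. Their part in the level of Gpnmb was not tested. Among 23 iron and heme genes, 7 were higher without overlap and none lower (30.4%, against 19.8% over all genes). Fth1, the ferritin heavy chain, measured 6806, 7078 and 7324 CPM with αPD-1 and 10858, 11083 and 9784 CPM with αPD-1 + corin.

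Several heat shock genes were lower with αPD-1 + corin, although the list as a whole, which also holds immediate early genes, had a median near that of all genes (-0.05). Of 31 tested immediate early and heat shock genes, 10 were lower without overlap and 4 higher (45.2%, against 19.8% over all genes). An unadjusted p under 0.05 was found downward for 9 and upward for 4, and none passed the adjusted p. Without αPD-1 + corin sample 3, 5 passed as lower and 2 as higher. Hspa1a, an inducible HSP70 chaperone, measured 1029, 719 and 968 CPM with αPD-1 and 248, 209 and 569 CPM with αPD-1 + corin (log2 fold change -1.40 ± 0.34 (SE), adjusted p = 0.126 with all samples and 0.000677 without αPD-1 + corin sample 3, edgeR). Hspa1b, its near-identical neighbor with which reads can be shared, measured 752, 514 and 598 CPM with αPD-1 and 149, 118 and 406 CPM with αPD-1 + corin. Hsph1, an HSP70 exchange factor, measured 310.2, 178 and 188 CPM with αPD-1 and 62.7, 49 and 125 CPM with αPD-1 + corin. Bag3, a co-chaperone, measured 215, 164 and 137 CPM with αPD-1 and 62.7, 59.1 and 129.9 CPM with αPD-1 + corin. In all 4 genes αPD-1 + corin sample 3 lay between the other αPD-1 + corin samples and the αPD-1 samples. T cells of the same libraries showed the same order, with an Hspa1a UMI in 52.7, 47.5 and 45.5% of cells with αPD-1 and 11.2, 11.9 and 31.8% with αPD-1 + corin after thinning, against 55.1, 38.9 and 41.8% of cells with αPD-1 and 16.7, 14.7 and 32.4% with αPD-1 + corin of the class. Hspa8, a constitutive HSP70 and the highest heat shock member by level, overlapped (log2 fold change -0.07 ± 0.15 (SE)). Among the immediate early genes, Egr1 measured 183, 136 and 196 CPM with αPD-1 and 429.6, 461 and 301 CPM with αPD-1 + corin, above in every αPD-1 + corin sample, whereas Fos measured 1862, 2248 and 2163 CPM with αPD-1 and 2020.4, 2192 and 2145 CPM with αPD-1 + corin, with overlap.

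Cell cycle genes were lower in most members, at low levels. Of 40 members, 5 had a log2 fold change above 0, and 7 were lower without overlap and 1 higher (20%, near the 19.8% over all genes). An unadjusted p under 0.05 was found for 5, all downward, and none passed the adjusted p. The median was -0.27, and -0.32 without αPD-1 + corin sample 3. Cenpe, a kinetochore motor, measured 34.2, 42.7 and 38.6 CPM with αPD-1 and 17.5, 23.3 and 32.4 CPM with αPD-1 + corin. Cenpf, a kinetochore protein, measured 35.5, 36.2 and 28.2 CPM with αPD-1 and 18.5, 25.7 and 22.1 CPM with αPD-1 + corin. αPD-1 + corin sample 1 was the lowest for both.

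Among growth factor and cytokine receptors, 5 of 26 were higher and 3 lower without overlap (30.8%, against 19.8% over all genes), with no adjusted p under 0.05. Tgfbr1, the signaling chain of the TGF-β receptor, measured 122, 167 and 96.6 CPM with αPD-1 and 48.7, 78.8 and 78.3 CPM with αPD-1 + corin. Tgfbr2, its ligand-binding chain, measured 106, 106 and 117 CPM with αPD-1 and 80.2, 82.8 and 77.2 CPM with αPD-1 + corin, both lower in every αPD-1 + corin sample (log2 fold changes -0.93 ± 0.24 (SE) and -0.45 ± 0.13 (SE)). Ifngr1, a chain of the interferon gamma receptor, measured 84.3, 74.9 and 76.5 CPM with αPD-1 and 118, 99.7 and 105 CPM with αPD-1 + corin. Csf1r, the receptor on which macrophage survival depends, measured 294, 268 and 326 CPM with αPD-1 and 341, 293 and 324 CPM with αPD-1 + corin with overlap. Of the 19 checkpoint ligands and inhibitory receptors, 4 were higher and 1 was lower without overlap (26.3%, against 19.8% over all genes). Vsir, the checkpoint VISTA, measured 102, 108 and 101 CPM with αPD-1 and 161, 159 and 121 CPM with αPD-1 + corin. Cd200r1, an inhibitory receptor for CD200, measured 75.3, 70.1 and 82.1 CPM with αPD-1 and 49.4, 42.2 and 65.1 CPM with αPD-1 + corin. Inpp4b, a phosphoinositide phosphatase and among the largest decreases without overlap, measured 86.4, 57.5 and 54.7 CPM with αPD-1 and 15.5, 24.1 and 29.9 CPM with αPD-1 + corin (log2 fold change -1.53 ± 0.26 (SE), adjusted p = 0.0663, edgeR), and B cell barcodes held 379.6 CPM of it. Pde3b, a cyclic nucleotide phosphodiesterase, measured 52.3, 53.6 and 49.9 CPM with αPD-1 and 27.4, 28.9 and 19.6 CPM with αPD-1 + corin (adjusted p = 0.0663).

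Of 20 efferocytosis and phagocytosis genes, 4 were higher and 3 lower without overlap (35%, against 19.8% over all genes), with a median of 0.09 that was -0.15 without αPD-1 + corin sample 3. Itgb2, the β2 integrin chain, measured 148, 190.3 and 167 CPM with αPD-1 and 283, 250 and 294 CPM with αPD-1 + corin. Elmo1, which links dead-cell receptors to Rac, measured 491, 412 and 468 CPM with αPD-1 and 267, 294 and 367 CPM with αPD-1 + corin. Their directions were opposite, and both were without overlap. Matrix genes had a median of 0.24 with all samples and 0.59 without αPD-1 + corin sample 3, and Spp1, osteopontin, measured 503, 436 and 741 CPM with αPD-1 and 1536, 711 and 219.9 CPM with αPD-1 + corin. Arg1, arginase, measured 437, 188 and 452 CPM with αPD-1 and 1423, 595 and 228 CPM with αPD-1 + corin, so that for both genes αPD-1 + corin sample 1 was the highest and sample 3 at or near the lowest of all 6. Hypoxia and glycolysis genes had 27 of 29 log2 fold changes above 0, but 3 were higher without overlap, or 10.3%, near the 9.57% over all genes. For the CoREST complex, the target of corin, 2 of 13 members were higher without overlap (15.4%, below the 19.8% over all genes) and none had an unadjusted p under 0.05. Kdm1a, the LSD1 demethylase, measured 55.8, 57.5 and 49.1 CPM with αPD-1 and 62.3, 63.1 and 65.1 CPM with αPD-1 + corin (log2 fold change 0.22 ± 0.14 (SE)), and Rcor1, its scaffold, measured 87.1, 79.3 and 84.5 CPM with αPD-1 and 70.3, 64.3 and 84 CPM with αPD-1 + corin.

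Lists of general macrophage function varied in their share of members without overlap, which was 19.8% over all genes. It was 10.5% for macrophage identity, 28.6% for Fc receptors, 0% for metallothioneins and zinc and 11.1% for alternative activation and repair. Of 19 tested macrophage identity genes, 2 were higher without overlap and none lower, and 2 had an unadjusted p under 0.05 upward and 1 downward. Lyz2, lysozyme, measured 2638, 2110 and 3985 CPM with αPD-1 and 5672, 3962 and 4338 CPM with αPD-1 + corin, with overlap. Cd68, a lysosomal glycoprotein, measured 669.8, 770.1 and 752 CPM with αPD-1 and 1042, 832 and 781 CPM with αPD-1 + corin without overlap (log2 fold change 0.28 ± 0.16 (SE)). Of 7 Fc receptor genes, 1 was higher and 1 lower without overlap, and Fcer1g, the shared γ chain, measured 1976, 2301 and 2076 CPM with αPD-1 and 2564, 2515 and 2408 CPM with αPD-1 + corin. None of 6 metallothionein and zinc genes was without overlap, and Mt1 measured 532, 497 and 634 CPM with αPD-1 and 729, 486 and 379 CPM with αPD-1 + corin. Of 18 alternative activation and repair genes, none was higher and 2 were lower without overlap. Pdgfb, a growth factor for pericytes, measured 22.3, 28.3 and 24.1 CPM with αPD-1 and 15.3, 16.1 and 20.6 CPM with αPD-1 + corin.

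Of 16 amino acid and nitric oxide genes, 4 were higher without overlap and none lower (25%, against 19.8% over all genes). Ass1, which rebuilds arginine from citrulline, measured 30.7, 34.4 and 36.2 CPM with αPD-1 and 36.9, 55.5 and 67.3 CPM with αPD-1 + corin. Among the hypoxia genes, Ndrg1 measured 55.8, 46.2 and 55.5 CPM with αPD-1 and 117, 116 and 65.5 CPM with αPD-1 + corin (log2 fold change 0.93 ± 0.23 (SE), adjusted p = 0.126 with all samples and 0.0024 without αPD-1 + corin sample 3, edgeR). Among the matrix genes, Mmp14, a membrane-bound metalloproteinase, measured 99.7, 97.1 and 101 CPM with αPD-1 and 165, 137 and 148 CPM with αPD-1 + corin. Plaur, the urokinase receptor, measured 140.1, 131 and 205 CPM with αPD-1 and 242, 289.8 and 211 CPM with αPD-1 + corin. Among the iron genes, Tfrc, the transferrin receptor, measured 20.9, 16.6 and 13.7 CPM with αPD-1 and 30.8, 33.4 and 24.9 CPM with αPD-1 + corin. All 5 of these genes were higher in every αPD-1 + corin sample. Without cells bearing other-lineage markers their log2 fold changes were 0.63 for Ass1, 1.00 for Ndrg1, 0.60 for Mmp14, 0.40 for Plaur and 0.33 for Tfrc, compared with 0.64, 0.93, 0.60, 0.65 and 0.80 in all cells of the class.

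The members with the highest level in a list mostly had small fold changes. Those whose groups overlapped were Tyrobp, a signaling adaptor (0.19 ± 0.15 (SE) log2 fold change), B2m, the light chain of MHC class I (0.15 ± 0.15 (SE)), Gapdh of glycolysis (0.15 ± 0.15 (SE)), Ftl1, the ferritin light chain (0.17 ± 0.15 (SE)), and Sirpa, the receptor of CD47 (0.11 ± 0.16 (SE)). Also overlapping were Lilrb4a, an inhibitory receptor (0.18 ± 0.15 (SE)), Dock2, a Rac activator (-0.16 ± 0.15 (SE)), Hmgb2, a chromatin protein of dividing cells (-0.11 ± 0.16 (SE)), Csf2ra, a GM-CSF receptor chain (-0.21 ± 0.15 (SE)), Sat1 of polyamine breakdown (0.01 ± 0.15 (SE)), Phf21a of the CoREST complex (-0.28 ± 0.17 (SE)), Tgfbi (0.25 ± 0.22 (SE)) and Mt2, a metallothionein (0.13 ± 0.41 (SE)). Larger values with overlap were those of Fn1, fibronectin (1.14 ± 0.66 (SE)), Fcgr2b, the inhibitory Fc receptor (0.65 ± 0.28 (SE)), and Ifi27l2a (0.54 ± 0.31 (SE)). Without overlap were Vim, vimentin (0.36 ± 0.16 (SE)), Nfkbia, the inhibitor of NF-κB (0.46 ± 0.14 (SE)), H2-D1, a class I heavy chain (0.24 ± 0.14 (SE)), Itgam, a complement receptor chain (0.40 ± 0.16 (SE)), Pkm of glycolysis (0.27 ± 0.15 (SE)) and Tubb5, a tubulin (0.17 ± 0.14 (SE)). None of the genes named in this group passed the threshold after adjustment (edgeR).

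**Figure D4:**
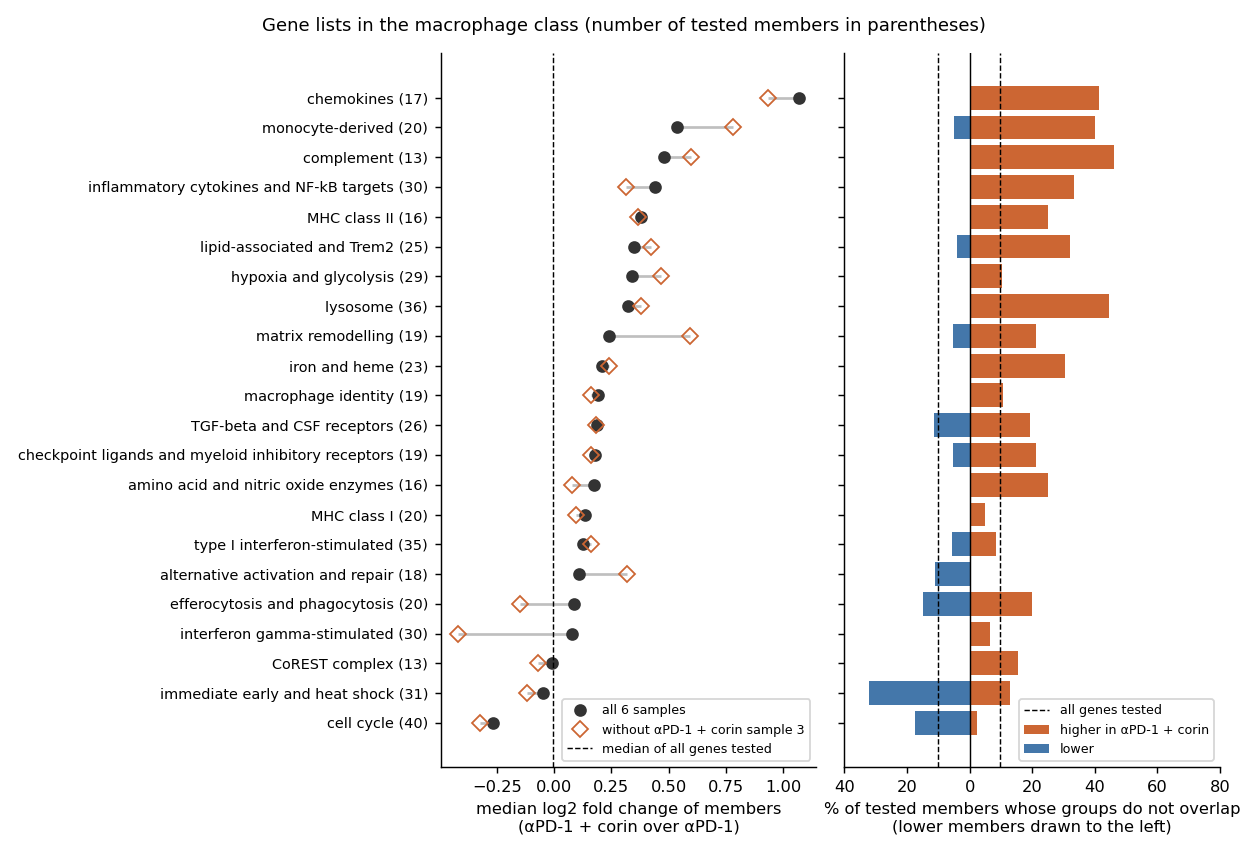
Lists of macrophage function with at least 10 tested members. Left, median log2 fold change of the members with all 6 samples (dots) and without αPD-1 + corin sample 3 (diamonds), with the median of all genes dashed. Right, percent of members higher (orange) or lower (blue) without overlap between the groups, with the shares over all genes, 9.57% and 10.2%, dashed. Chemokines have the highest median of these lists, 1.07, and lysosome genes have 16 of 36 members higher and none lower.

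RNA of other cell types was present in the class and its level differed between the samples. The summed neutrophil markers were 188, 66.2 and 65.7 CPM with αPD-1 and 2141, 4713 and 179 CPM with αPD-1 + corin, with 2, 1 and 2 of the 5 markers at 0 with αPD-1 and none at 0 with αPD-1 + corin. The fibroblast markers summed to 1.5, 1.4 and 2.4 CPM and 479, 100.5 and 61.6 CPM, the monocyte markers Ly6c2, Ccr2, Plac8 and Chil3 to 892, 649.9 and 1211 CPM and 1642, 1470.4 and 949 CPM, and the endothelial markers Pecam1 and Cdh5 to 37.9, 51.3 and 25.7 CPM and 34.8, 50.8 and 31.1 CPM. Neutrophil and fibroblast markers were thus highest in αPD-1 + corin samples 1 and 2, and endothelial and dendritic cell markers did not separate the groups. Trac of T cells was at 6.6, 3.2 and 2.4 CPM and 1, 3.1 and 2.7 CPM. The plasma cell markers Jchain and Mzb1 summed to 18.9, 4.1 and 27.3 CPM and 1, 0.4 and 1 CPM, and the NK cell markers Ncr1, Klrb1c and Klre1 to 2.9, 16.2 and 0 CPM and 9, 5.8 and 6 CPM.

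Leaving out the cells with 2 or more UMIs of any of 6 of these marker sets separated the named genes. Of 26 named genes without overlap, tested in both fits and with a log2 fold change of at least 1 in size, 14 kept at least 0.75 of their log2 fold change and 6 kept under 0.5. The latter included Hcar2 (2.21 and then 0.38), Ptgs2 (1.04 and 0.28), Ccl3 (1.13 and 0.38), Slc7a11 (2.65 and 1.04) and Clec4e (1.23 and 0.57), and each of these had its highest level outside the class in neutrophil barcodes, above that in monocytes. Those that kept their size included Apoc2 (1.53 and 1.67), Ccl2 (1.21 and 1.27), Cxcl1 (2.64 and 2.40), Ifitm6 (1.92 and 1.77) and the 4 heat shock genes, Hspa1a at -1.40 and -1.37. No gene of 9207 passed the adjusted p in that fit (edgeR), and 1073 had an unadjusted p under 0.05. Of the heat shock genes, Hspa1a, Hspa1b and Hsph1 were highest elsewhere in B cell barcodes, at 2530, 2085 and 1011 CPM. The filter uses no T or B cell markers, because the rule had already left out cells with such UMIs. It therefore could not remove RNA of T or B cells, whose part in these genes was not tested.

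Several of the highest fold changes belonged to genes that were near 0 in the αPD-1 samples and abundant in another cell type. Lcn2, an iron-binding protein of neutrophil granules, measured 3.49, 0.436 and 0.805 CPM with αPD-1 and 28.2, 46.6 and 9.25 CPM with αPD-1 + corin, and neutrophil barcodes held 504 CPM. Sparc, a matrix protein, measured 4.18, 7.41 and 12.1 CPM with αPD-1 and 389, 99.3 and 34.9 CPM with αPD-1 + corin, and fibroblast barcodes held 10388 CPM. Serpinh1, a collagen chaperone, measured 9.06, 2.61 and 8.85 CPM with αPD-1 and 139, 43 and 15.3 CPM with αPD-1 + corin, and fibroblast barcodes held 2452 CPM. None of these 3 was left in the test once cells bearing other-lineage markers were taken out, because their counts were then too low, and their part in the class was not tested.

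**Figure D5:**
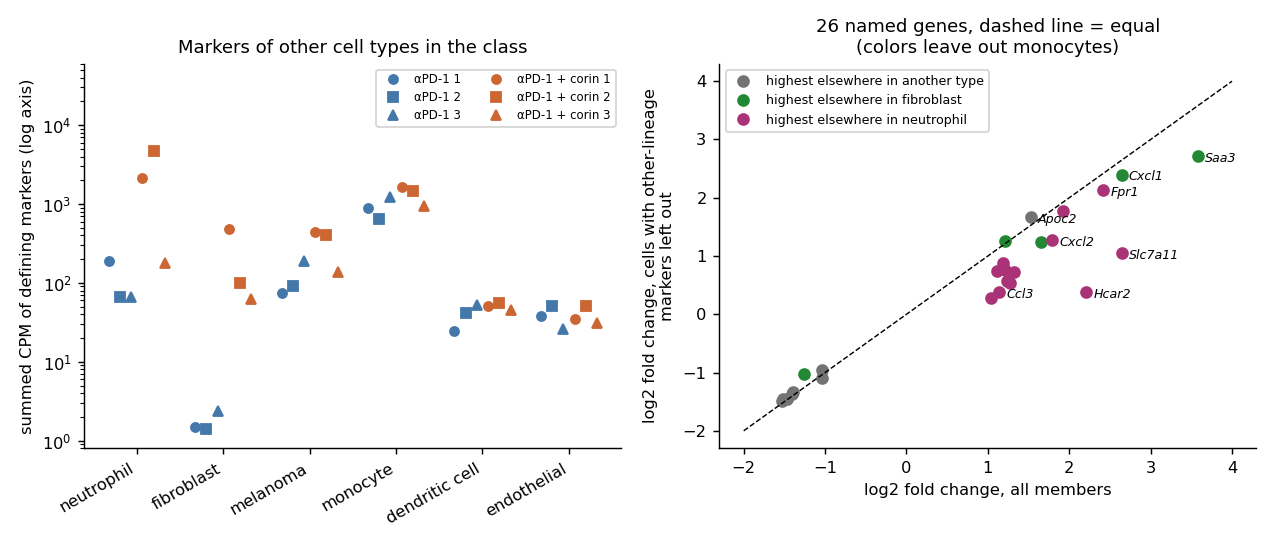
Left, summed level in CPM (log axis) of the defining markers of other cell types in the macrophage class, by sample. Right, log2 fold change of 26 named genes in all cells of the class against that without cells bearing other-lineage markers, colored by the cell type with the highest level outside the class, monocytes not considered. Neutrophil and fibroblast markers are highest in αPD-1 + corin samples 1 and 2, and genes high in neutrophils such as Hcar2 (2.21 and 0.38) lie farthest below the dashed line of equal values.

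The response of the class was compared with that of the other C1q-positive macrophages by the interaction of class and treatment, with the sample as a block. Against the Lyve1 Folr2 Fcna macrophages 19 of 9474 genes differed at an adjusted p of 0.05 (0.201%), 11 with a higher and 8 with a lower log2 fold change in the class described here. Ly6c2 was the clearest, with levels, here in UMIs per 1000000 without scaling factors, of 107, 120 and 209 against 232, 269 and 207 in this class and of 13.5, 17.8 and 54.8 against 159, 253 and 189 in the Lyve1 Folr2 Fcna cells. The difference of log2 fold changes was -2.22 ± 0.26 (SE, adjusted p = 0.00136, edgeR), and it passed in 5 of 6 fits that left out 1 sample, with an adjusted p of 0.0647 without αPD-1 sample 2. More T cells than cells of the class carried Ly6c2, and the part of such RNA in this difference was not tested. The αPD-1 levels in the Lyve1 Folr2 Fcna cells rested on 8, 10 and 17 Ly6c2 UMIs from 90, 70 and 44 cells. Against these cells no gene passed without αPD-1 sample 2 (620 at an unadjusted p under 0.05) and 2 passed without αPD-1 sample 1, by edgeR. Cxcl1 differed by 2.44 ± 0.36 (SE, adjusted p = 0.0107, and up to 0.0815 with 1 sample left out), from levels on the same scale of 32.2, 48.2 and 135 CPM with αPD-1 and 101, 49.3 and 54.0 CPM with αPD-1 + corin in the Lyve1 Folr2 Fcna cells. In those cells the groups overlapped, whereas in this class they did not. Against the Ppbp Ccl24 macrophages 11 of 8935 genes differed (0.123%), a comparison resting on 5, 5 and 9 such cells with αPD-1 and 1 cell in αPD-1 + corin sample 3. Against the Mmp12 Mmp13 Hilpda macrophages none of 9435 genes differed (0.0%) by edgeR, and 772 had an unadjusted p under 0.05.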

How the data were processed

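CD45+ cells of 6 samples, 3 of αPD-1 and 3 of αPD-1 + corin, were measured by droplet single-cell RNA-Seq with a 5′ kit. The authors deposited raw UMI counts per gene (32285 genes) and per barcode that Cell Ranger (version 8.0 in the submitters' processing notes), run on GRCm39, called as a cell. Each sample has its own matrix, and whether a sample pools animals is not stated. The study itself tested single cells with MAST, whereas here cells were not treated as replicates.

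Cells were chosen by the limits given above and their counts summed per sample. The sums were tested with edgeR 4.0.16 (limma 3.58.1, R 4.3.3), with TMM factors, its filter on low counts and a quasi-likelihood test, and adjusted by Benjamini-Hochberg over all genes tested. The alternative DESeq2 was version 1.42.0. Levels are CPM on the TMM-scaled library size unless stated otherwise. Shares were compared by exact permutation tests in scipy 1.17.1, and their 95% Wilson intervals cover counting error only. Doublets were scored with Scrublet in scanpy 1.11.5 at an expected rate of 0.4% per 1000 barcodes, and left in unless stated. For shares of cells with a UMI, each cell was thinned to 1000 UMIs. The fits were tested on simulated data. Replicate numbers were not used to pair the samples in the main fit, because the labels share only the number. Correlations between same-numbered samples' deviations from their group means were -0.17, 0.003 and -0.31. Deviations within a group of 3 samples depend on each other, so these values cannot show whether samples were handled in pairs.

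The members and the gene lists were chosen with earlier results of these data known. Genes named were those past the threshold, the 2 members of each list with the highest level, and up to 3 genes with the largest called difference per class comparison. By a rule added after the values were seen, up to 4 members per list without overlap and at 20 CPM or more were also named, with up to 8 rises and 8 falls without overlap at 50 CPM or more. The interaction genes at 50 CPM or more in the class, and the other chemokines, receptors and marker genes described, were chosen after their values were seen. Levels in other cell types come from barcodes of the same libraries with those cells' markers and no C1q UMI, and a highest level outside the class leaves out monocytes unless they are named.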

Additional observations from a re-analysis of the deposited data

Results flagged for a closer look

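The treatment effect of 19 genes differed between this class and the Lyve1 Folr2 Fcna macrophages, and that of 11 genes between this class and the Ppbp Ccl24 macrophages, by edgeR's test of the interaction at an adjusted p of 0.05. The values below are the log2 fold change in this class minus that in the other, and levels are UMIs per 1000000 without scaling factors.

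The 3 highest differences rested on 1 library of the other class. Meis2 differed by 5.61 ± 0.99 (SE, adjusted p = 0.0241), Prkg1 by 4.99 ± 0.76 (SE, adjusted p = 0.0107) and Chsy3 by 4.68 ± 0.82 (SE, adjusted p = 0.0241). In the Lyve1 Folr2 Fcna macrophages, Meis2 had 51, 1 and 0 UMIs with αPD-1 and 21, 2 and 1 UMIs with αPD-1 + corin, Prkg1 had 214, 7 and 1 UMIs with αPD-1 and 85, 9 and 3 UMIs with αPD-1 + corin and Chsy3 had 244, 1 and 1 UMIs with αPD-1 and 138, 10 and 1 UMIs with αPD-1 + corin, so αPD-1 sample 1 held most of the αPD-1 UMIs of each. Without that sample the differences were 1.10, 1.76 and -0.55, with none of the 3 called. Melanoma barcodes held 357 CPM of Meis2, 1345 of Prkg1 and 1653 of Chsy3.

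Ly6c2 differed by -2.22 ± 0.26 (SE, adjusted p = 0.00136, edgeR). Its level in the other class was 13.5, 17.8 and 54.8 CPM with αPD-1, from 8, 10 and 17 UMIs. With αPD-1 + corin it was 159, 253 and 189 CPM. Slfn4, a schlafen family gene of myeloid cells, differed by -1.29 ± 0.24 (SE, adjusted p = 0.0302), at 190.2, 133 and 222 CPM with αPD-1 and 283, 417 and 104 CPM with αPD-1 + corin in this class and 67.7, 25 and 99.9 CPM with αPD-1 and 237, 307 and 87 CPM with αPD-1 + corin in the other. AW112010, an interferon-responsive transcript, differed by -1.51 ± 0.26 (SE, adjusted p = 0.0224), at 306, 422 and 188 CPM with αPD-1 and 66, 297 and 601 CPM with αPD-1 + corin here and 122, 102 and 109.5 CPM with αPD-1 and 89.6, 272 and 532 CPM with αPD-1 + corin there. Cxcl1 differed by 2.44 ± 0.36 (SE, adjusted p = 0.0107). Il1rn, the interleukin 1 receptor antagonist, differed by 1.48 ± 0.28 (SE, adjusted p = 0.0319), at 131, 98.1 and 136 CPM with αPD-1 and 160.2, 178 and 133 CPM with αPD-1 + corin here and 79.5, 111 and 116 CPM with αPD-1 and 38.9, 80.7 and 29.99 CPM with αPD-1 + corin there, with overlap in both classes. Sirpb1a, whose near-identical family members can share reads, differed by -2.48 ± 0.41 (SE, adjusted p = 0.0198), E230029C05Rik by -1.47 ± 0.28 (SE, adjusted p = 0.0334) and Fmn1, a formin, by 1.05 ± 0.20 (SE, adjusted p = 0.039). With 1 sample left out at a time, Ly6c2 passed in 5 of 6 fits, AW112010 and Cxcl1 in 4, Slfn4 and Sirpb1a in 3, Il1rn and Fmn1 in 2 and E230029C05Rik in 1.

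Against the Ppbp Ccl24 macrophages, Rsad2, an interferon-stimulated gene, differed by -10.5 ± 2.46 (SE, adjusted p = 0.0209), Cd163, the haptoglobin-hemoglobin receptor, by -10.5 ± 2.32 (SE, adjusted p = 0.00867), and Slc40a1, the iron exporter ferroportin, by 4.98 ± 0.94 (SE, adjusted p = 0.000328). Rsad2 had 0, 0 and 0 UMIs with αPD-1 and 68, 167 and 0 UMIs with αPD-1 + corin in the other class, Cd163 had 0, 0 and 0 UMIs with αPD-1 and 307, 74 and 0 UMIs with αPD-1 + corin and Slc40a1 had 11, 1 and 0 UMIs with αPD-1 and 0, 3 and 0 UMIs with αPD-1 + corin. Fitted values against libraries at 0 depend on the prior count and are no bound. They rest on 5, 5 and 9 cells with αPD-1 and 1 cell in αPD-1 + corin sample 3.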

How the results depend on the processing

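Both differences in shares kept their direction under every alternative run, and their exact p-values, which cannot pass the threshold in this design, say nothing about stability. The difference in the share of kept barcodes ran from 3.54 to 7.41 points and that in the share of C1q-positive macrophages from -29.5 to -11.5, without αPD-1 + corin samples 3 and 1. The count of genes called between the treatments, 2, was 1 with doublets removed, 4 with no upper gene limit, 22 at a mitochondrial limit of 5%, 5 where Ms4a7, Adgre1 or Aif1 was needed, 41 with 326 cells drawn per sample, 803 with no filter on low counts, 1 with genes under 5% of another lineage's level left out and 137 with DESeq2. Without cells bearing other-lineage markers it was 0 (edgeR, 1073 at an unadjusted p under 0.05). It was 3 at a C1q minimum of 5 and 2 at a minimum of 2, with RLE factors and with thinned cells, where 1 of the 2 was shared with the reported calls. With 1 sample left out it ran from 0 to 880: 0 without αPD-1 sample 1 (edgeR, 1009 at an unadjusted p under 0.05) or sample 3 (1401), 3 without αPD-1 sample 2, and 20, 4 and 880 without αPD-1 + corin samples 1, 2 and 3. The replicate number as a block gave 30 calls, though same-numbered samples did not deviate together. Of the comparisons between classes, that with the Lyve1 Folr2 Fcna macrophages, 19 calls, gave 0 with no sample block (403 at an unadjusted p under 0.05) and 0 to 44 with 1 sample left out. That with the Ppbp Ccl24 macrophages, 11 calls, gave 0 with no sample block (803) and 1 to 25. That with the Mmp12 Mmp13 Hilpda macrophages, 0 calls (772), gave 4 with doublets removed and 0 to 7 with 1 sample left out. The difference of Chsy3 against the Lyve1 Folr2 Fcna macrophages ran from -0.55, without αPD-1 sample 1, to 5.86 with 1 sample left out. Over the genes named, 2210 treatment values stayed on the same side of the threshold, 164 passed it and 9 no longer did. Only Saa3 and Fpr1 were called in the main fit, so only their values could stop passing, and the 9 are theirs. Nearly all of the 2210 values belong to genes called in neither fit and do not show stability. Direction was compared only where the main fit or the alternative called the gene, so uncalled values could change sign. Cxcl9, for example, had a log2 fold change of 0.09 with all samples and -0.79 without αPD-1 + corin sample 3. Of the differences between classes, 80 kept their direction and side of the threshold and 58 no longer passed. The cause of these changes was not tested. The αPD-1 sums of 1247160 to 2221874 UMIs limit what can be read for genes of a few CPM.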

Other observations

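Levels of several genes differed across the C1q-positive macrophages. They are given as the lowest and highest of 6 samples in UMIs per 1000000 without scaling factors and with no test, because the classes were made from the same cells. Fth1 ran from 7117 to 10690 CPM in this class, 6137 to 10780 CPM in the Lyve1 Folr2 Fcna macrophages and 16090 to 24980 CPM in the Mmp12 Mmp13 Hilpda macrophages. Fabp5 ran from 423 to 1101 CPM in this class, 252 to 488 CPM in the Lyve1 Folr2 Fcna macrophages and 1230 to 3189 CPM in the Mmp12 Mmp13 Hilpda macrophages. Lgals3 ran from 1873 to 2644 CPM in this class, 1275 to 1623 CPM in the Lyve1 Folr2 Fcna macrophages and 4508 to 6572 CPM in the Mmp12 Mmp13 Hilpda macrophages. The range of Gpnmb was 106 to 258 CPM in this class, 30.5 to 113 CPM in the Lyve1 Folr2 Fcna macrophages and 290.1 to 1147 CPM in the Mmp12 Mmp13 Hilpda macrophages. For these 4 genes the Mmp12 Mmp13 Hilpda macrophages were above this class in every sample. Apoe ran from 2201 to 4431 CPM in this class, 4455 to 11610 CPM in the Lyve1 Folr2 Fcna macrophages and 1364 to 3065 CPM in the Mmp12 Mmp13 Hilpda macrophages. The range of Lyz2 was 2180 to 5512 CPM in this class, 5584 to 9380 CPM in the Lyve1 Folr2 Fcna macrophages and 2892 to 4609 CPM in the Mmp12 Mmp13 Hilpda macrophages, with the Lyve1 Folr2 Fcna macrophages highest for both. Cxcl9 ran from 27.2 to 712 CPM in this class, 4.5 to 193 CPM in the Lyve1 Folr2 Fcna macrophages and 3.65 to 449 CPM in the Mmp12 Mmp13 Hilpda macrophages, and all 3 ranges overlapped.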
